A study of Mus musculus with 3 samples.

Results

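The nuclear genes for the subunits of the respiratory chain were followed in single-cell RNA libraries of mouse ear epidermis enriched for Langerhans cells (LCs). They were chosen by symbol: names that start with Nduf and a subunit letter, the Sdh genes a to d, and names that start with Uqcr, with Cox and a digit from 4 to 8, or with Atp5, without pseudogenes. This gave 89 of the 34289 listed features, under 88 symbols, since Atp5po stands for 2 features. By name, 40 belong to complex I, 4 to complex II, 8 to complex III, 18 to complex IV and 19 to complex V. The names are not exact: Ndufa4 is named after complex I but its protein is now counted with complex IV, Cox7a2l encodes a protein that joins complexes III and IV, and Atp5if1 encodes an inhibitor of complex V.

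The respiratory chain sits in the inner mitochondrial membrane. Complexes I and II take electrons from NADH and succinate, complex III passes them on to cytochrome c and complex IV to oxygen, and complex V, the ATP synthase, uses the resulting proton gradient to make ATP. Most subunits are encoded in the nucleus and imported, while a core of complexes I, III, IV and V is encoded in mitochondrial DNA and complex II is wholly nuclear. LCs are antigen-presenting cells of the epidermis, and changes in cellular energy metabolism are a known feature of activated dendritic cells and macrophages.

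All animals were male mice of the Cd1 stock, which is outbred. The untreated group received only the depilatory cream Nair, the second group a mixture of acetone, croton oil (an irritant) and olive oil, and the third repeated punches with a microneedle array, which wounds the skin. Whether the treated mice also received the cream is not given in the sources used here. Ears were taken 48 hours after treatment began, the epidermis was lifted off with trypsin, and LCs were enriched on magnetic beads after removal of dead cells. Each group is 1 library, the number and age of the animals behind it are not given in the sources used here, and no difference below has a replicate check or a test. Intervals are exact Poisson intervals at 95% and cover counting error only.

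The promoters of 6 members are shown because these genes mark the ends of the range described below. Cox5a and Ndufa11 had the highest change with croton oil, Ndufs8 and Atp5me were among the highest with microneedle punches, and Ndufa6 and Cox7a2l were lower in both treated libraries. Each runs 5′ to 3′ in the direction of the gene, from 250 bases before to 50 bases after its start, taken from RefSeq on build GRCm38.p6. Capitals mark the letters CCGGAAG (bound by the ETS factor GABP), AAGATGG (YY1) and GCGCATGC (the factor NRF1) on either strand.
Cox5a, chr9:57520982-57521281, + strand: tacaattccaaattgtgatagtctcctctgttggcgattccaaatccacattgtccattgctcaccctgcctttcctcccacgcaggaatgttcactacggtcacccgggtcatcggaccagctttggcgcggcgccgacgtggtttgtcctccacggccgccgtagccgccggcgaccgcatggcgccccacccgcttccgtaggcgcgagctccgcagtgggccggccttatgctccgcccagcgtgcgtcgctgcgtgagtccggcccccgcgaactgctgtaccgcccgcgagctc
Ndufa11, chr17:56717512-56717811, + strand: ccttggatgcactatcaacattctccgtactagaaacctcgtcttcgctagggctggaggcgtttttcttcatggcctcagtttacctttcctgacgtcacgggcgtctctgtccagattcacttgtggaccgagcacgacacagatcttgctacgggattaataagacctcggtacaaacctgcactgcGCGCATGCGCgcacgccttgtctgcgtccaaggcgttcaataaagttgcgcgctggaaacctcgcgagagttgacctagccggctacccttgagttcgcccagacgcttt
Ndufs8, chr19:3912725-3913024, - strand: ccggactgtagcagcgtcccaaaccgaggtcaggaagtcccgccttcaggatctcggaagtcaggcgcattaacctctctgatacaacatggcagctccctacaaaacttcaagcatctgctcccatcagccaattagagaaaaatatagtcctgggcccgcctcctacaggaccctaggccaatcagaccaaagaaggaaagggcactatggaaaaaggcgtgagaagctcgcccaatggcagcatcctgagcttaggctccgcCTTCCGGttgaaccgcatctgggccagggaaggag
Atp5me, chr5:108434350-108434649, - strand: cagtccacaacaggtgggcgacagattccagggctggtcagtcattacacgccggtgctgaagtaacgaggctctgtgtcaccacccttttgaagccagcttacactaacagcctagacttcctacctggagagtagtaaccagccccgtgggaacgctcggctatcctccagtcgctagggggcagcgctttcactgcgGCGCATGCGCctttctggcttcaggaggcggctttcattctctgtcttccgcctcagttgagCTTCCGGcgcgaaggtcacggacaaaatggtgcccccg
Ndufa6, chr15:82354242-82354541, - strand: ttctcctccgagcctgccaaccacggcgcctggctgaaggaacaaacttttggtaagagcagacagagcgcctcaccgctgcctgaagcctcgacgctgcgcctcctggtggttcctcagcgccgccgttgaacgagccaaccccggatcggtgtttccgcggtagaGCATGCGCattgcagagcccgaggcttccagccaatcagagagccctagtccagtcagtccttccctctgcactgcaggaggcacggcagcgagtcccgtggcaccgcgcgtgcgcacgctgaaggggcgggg
Cox7a2l, chr17:83514284-83514583, - strand: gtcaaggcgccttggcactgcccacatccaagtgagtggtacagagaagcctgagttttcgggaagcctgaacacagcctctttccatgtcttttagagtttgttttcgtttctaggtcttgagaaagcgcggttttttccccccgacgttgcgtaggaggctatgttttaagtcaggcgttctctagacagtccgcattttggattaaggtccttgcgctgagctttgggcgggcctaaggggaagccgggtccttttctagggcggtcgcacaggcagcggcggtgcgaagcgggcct

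Of these windows, those of Ndufa11, Ndufa6 and Atp5me held the NRF1 letters and those of Ndufs8 and Atp5me the ETS letters, while Cox5a and Cox7a2l held none of the 3 words. In Ndufa11 and Atp5me the NRF1 letters overlap with their own reverse complement and form 1 run. A promoter was found for 69 of the 89 members. The ETS letters stood in 15 of the 69 (21.7%) against 9.12% of the 27025 promoters in the table and 11.9% of those of protein-coding genes. The NRF1 letters stood in 10 (14.5%), against 2.80% of all promoters and 3.60% of coding ones, and the YY1 letters also in 10, against 6.47% of all and 6.37% of coding ones. The letters CCAAT, common in promoters in general, were in 29 (42.0%), against 37.9% of all. A match is a string of letters, not a bound site. The ETS letters stood in 10 of the 41 promoters of members at least 1.3-fold higher with croton oil and in 5 of the 21 promoters of the other members measured, the NRF1 letters in 6 and 3, the YY1 letters in 6 and 4, and CCAAT in 13 (31.7%) and 12 (57.1%).

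The libraries held 9876 barcodes in the untreated, 8241 in the croton oil and 6945 in the microneedle group, with 117178809 to 127666928 UMIs (unique molecular identifiers, 1 per captured molecule). Cells counted as LCs had at least 2% of their UMIs from Cd74, H2-Aa, H2-Ab1 and H2-Eb1 and at least 2 UMIs of Epcam, which left 9399, 6281 and 5612 cells with a median of 11663, 12710 and 17505 UMIs. All 8 LC markers checked were above 20 CPM (UMIs of a gene per 1000000 UMIs of the class) in each library. Epcam, 1 of the 8, is part of the gate, so its level is no check. The 8 together summed to 4143, 5399 and 5098 CPM, while Cd207, the gene for langerin, was at 571, 324 and 462 CPM. Outside the gates fell 2.47%, 14.8% and 7.82% of the cells, in the same order. Of the lists of other cell types, the 15 keratinocyte genes summed to 196, 178 and 71.6 CPM in LCs, the 12 macrophage genes to 18.2 to 27.8 CPM, the 4 fibroblast genes to under 1 CPM, and 3 of the fibroblast genes (Col1a2, Dcn, Lum) had no UMI in at least 1 library. The 4 conventional dendritic cell genes summed to 243, 159 and 162 CPM, with 2, 1 and 1 of them at 20 CPM or more. The 11 neutrophil genes summed to 2667, 2844 and 4195 CPM, nearly all of it Il1r2 (2499.7, 2657 and 3957 CPM), also in the untreated library, where no cell was in the neutrophil gate. Of the others, S100a8 stood at 0.0665, 44.5 and 42.3 CPM and S100a9 at 0.183, 60.8 and 73.2 CPM, while Mmp9 (151, 25.2 and 71.4 CPM) and Cxcr2 (9.04, 2.66 and 2.38 CPM) were highest without treatment. The part of these lists in the results was not tested.

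In LCs, the nuclear subunits together made up 9565 CPM (interval 9548 to 9583) in the untreated library, 12435 CPM (12412 to 12458) after croton oil and 10438 CPM (10418.3 to 10457.5) after microneedle punches. The sum was thus higher by 30.0% with croton oil and by 9.12% with microneedle punches. The spread between cells was wide. The subunits' share of a cell's UMIs had a median of 0.943% in untreated LCs, with 5% of cells below 0.620% and 5% above 1.42%. After croton oil the median was 1.25% (0.839% to 1.75%), and after microneedle punches 1.04% (0.653% to 1.59%), so the 3 distributions overlapped.

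Of the 89 members, 76 reached 20 CPM in LCs of at least 1 library in each comparison and were compared. Changes are log2 ratios after adding 5 CPM to each level, which understates those of low genes. With croton oil, the median change of the 76 was 0.45 against -0.04 over all 6839 genes measured, and 69 had a positive change, as did 47.6% of all genes. At least 1.3-fold higher were 46 members, where 24.4% of all genes were, and 1 member was at least 1.3-fold lower, where 27.3% of all genes were. The lower count was 5 with a total without mt- and ribosomal protein genes (29.8% of all genes) and 5 with a stricter LC gate (27.1%). At 2-fold in either direction stood 2 members, Cox5a and Ndufa11, against 11.1% of all genes. With microneedle punches the median was 0.18, against 0.02 over 6709 genes. Here 20 members were at least 1.3-fold higher (16.1% of all genes) and 2 at least 1.3-fold lower (14.4%), and 0 reached 2-fold (5.68%). The higher count dropped to 12 under TMM scaling (the trimmed mean of M values, which centres typical genes), where 14.2% of all genes passed, and to 12 with a total without mt- and ribosomal protein genes (13.9%), so that it then lay close to the share over all genes. The members' share above 1.3-fold was thus 60.5% with croton oil and 26.3% with microneedle punches in the scaling used throughout. Both comparisons share the untreated library.

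**Figure D1:**
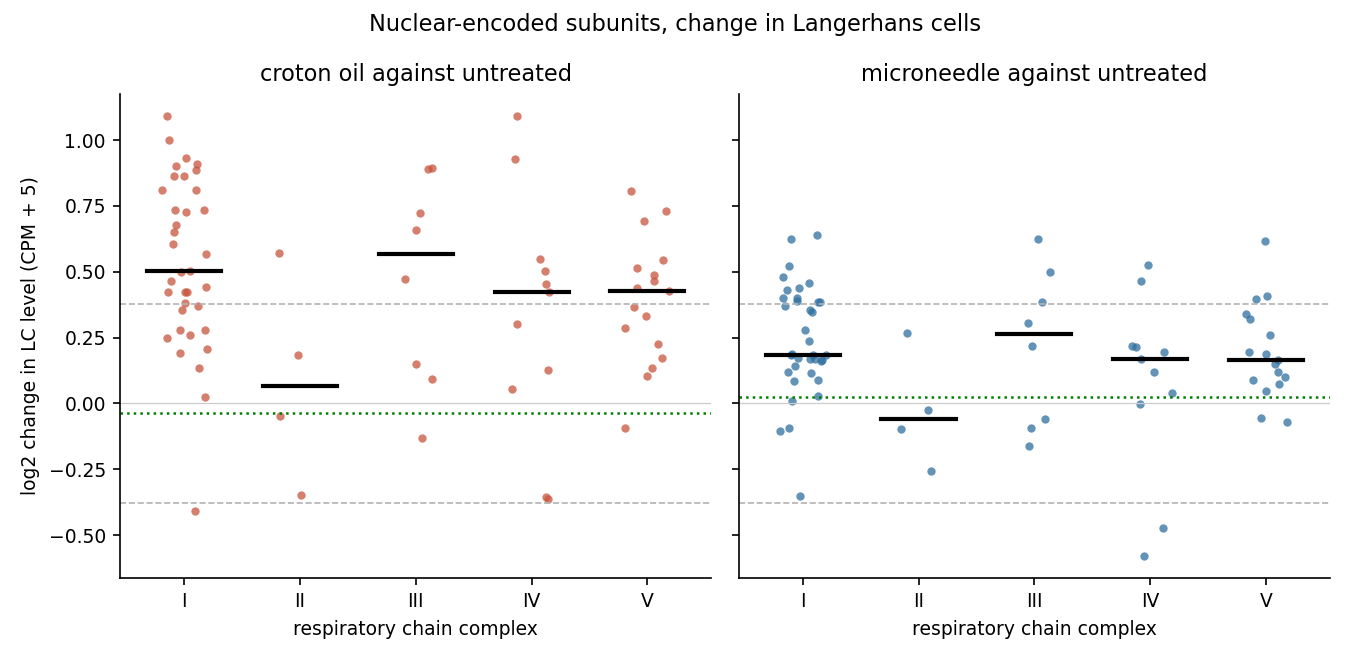
Log2 change of each nuclear-encoded subunit in LCs (y axis, CPM + 5) by complex (x axis), with croton oil on the left and microneedle punches on the right. Points are genes of at least 20 CPM, black bars the median of a complex, dashed lines 1.3-fold, and the dotted green line the median of all genes. The medians of complexes I, III, IV and V lie between 0.42 and 0.57 with croton oil and between 0.17 and 0.26 with microneedle punches, and complex II lies near the line of all genes.

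Complex I, the entry point for electrons from NADH, had 25 of 36 members above 1.3-fold with croton oil, where 24.4% of all genes were, with a median of 0.50. Its summed level was 2792 CPM in untreated LCs, 3921 CPM with croton oil and 3174 CPM with microneedle punches. The highest change was that of Ndufa11, an accessory subunit of the membrane arm, at 48.5, 109 and 71.9 CPM (log2 1.09 with croton oil and 0.52 with microneedle punches). Ndufv3, an accessory subunit beside the NADH-binding part, stood at 48.3, 102 and 78.0 CPM (1.00 and 0.64, the highest in the complex with microneedle punches). Both genes were highest after croton oil and lowest in untreated LCs.

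Ndufs8, which carries iron-sulfur clusters, was at 17.6, 37.4 and 29.8 CPM in the same order (0.91 and 0.62). Ndufb9, of the membrane arm, was at 96.8, 189 and 128 CPM, with a change of 0.93 with croton oil and 0.38 with microneedle punches. Its exons overlap those of another listed gene on the same strand, so its count is less certain. Ndufa4 was among the most abundant members named after the complex, at 156, 295 and 205 CPM (0.90 and 0.39). In each of these 3 genes the microneedle library lay between the other two.

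The core subunits of complex I differed among themselves. Ndufv2, an iron-sulfur subunit of the NADH-binding part, had 45.4, 86.6 and 64.1 CPM. Ndufv1, which binds NADH itself, had 40.5, 59.5 and 46.8 CPM (0.50 and 0.19). Ndufs1, the largest iron-sulfur subunit, had 41.9, 42.6 and 47.4 CPM, a change of 0.02 with croton oil. It was second lowest there among the complex I members compared.

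The exception in complex I was Ndufa6, an accessory subunit and the most abundant member of the complex in untreated LCs. It stood at 411 CPM (407 to 414) without treatment, 308 CPM (304 to 312) with croton oil and 320.4 CPM (317 to 324) with microneedle punches. Its changes of -0.41 and -0.35 were the lowest of complex I in both treated libraries, and it was the member counted as at least 1.3-fold lower with croton oil. Ndufa2, another abundant accessory subunit, was at 156, 187 and 177 CPM. With microneedle punches, Ndufc2 was the next lowest, at 115 CPM untreated and 106 CPM after the punches.

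Complex II, succinate dehydrogenase, which also works in the citric acid cycle, had similar summed levels in the 3 libraries. Its 4 genes summed to 186 CPM (184 to 189) without treatment, 189 CPM (186 to 192) with croton oil and 176 CPM (173 to 178) with microneedle punches. The log2 change of this sum with croton oil was 0.02, and it turned to -0.02 with a total without mt- and ribosomal protein genes and to -0.03 with a stricter LC gate. Sdhc, a membrane anchor, was at 25.1, 39.7 and 31.3 CPM (0.57 and 0.27), the only 1 of the 4 above 1.3-fold with croton oil (24.4% of all genes). Sdhd, the other anchor, was at 39.7, 45.7 and 38.9 CPM.

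Sdha, the flavoprotein that oxidises succinate, was at 52.8, 50.9 and 49.1 CPM (-0.05 and -0.10). Sdhb, the iron-sulfur subunit, was at 68.6 CPM (67.1 to 70.1) without treatment, 52.8 CPM (51.3 to 54.3) with croton oil and 56.7 CPM (55.2 to 58.1) with microneedle punches, with changes of -0.35 and -0.26. Sdhb was thus lower and the anchor Sdhc higher in both treated libraries, while the counting intervals of Sdha overlapped between the untreated (51.5 to 54.1 CPM) and croton oil libraries (49.4 to 52.4 CPM).

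Complex III, which oxidises ubiquinol and reduces cytochrome c, summed to 798, 1105 and 925 CPM, with 5 of 8 members above 1.3-fold with croton oil and 3 with microneedle punches (24.4% and 16.1% of all genes). The small subunit Uqcrq was at 92.3, 176 and 145 CPM (0.89 and 0.62). Uqcrb, which lies near the ubiquinone site, was at 84.0, 159.9 and 105 CPM (0.89 and 0.31). Uqcr10 and Uqcr11, further small subunits, had changes of 0.66 and 0.72 with croton oil and 0.50 and 0.39 with microneedle punches. Of the large subunits, Uqcrc2 was at 59.7, 64.0 and 55.5 CPM and the Rieske protein gene Uqcrfs1 at 75.9, 84.9 and 72.6 CPM. Uqcrh, the hinge protein and most abundant of the 8 in untreated LCs, was at 231, 211 and 206 CPM (-0.13 and -0.16). Above 1.3-fold with croton oil were Uqcrq, Uqcrb, Uqcr10, Uqcr11 and Uqcrc1, the last at 43.6, 62.5 and 51.5 CPM, and with microneedle punches Uqcrq, Uqcr10 and Uqcr11.

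Complex IV, cytochrome c oxidase, held both the highest and some of the lowest changes. It summed to 2814 CPM without treatment, 3411 CPM with croton oil and 2860.3 CPM with microneedle punches, where the small excess over untreated turned to a log2 difference of -0.02 under TMM scaling and -0.03 with a total without mt- and ribosomal protein genes. Taken by name, this sum holds Cox7a2l (431, 334 and 309 CPM) and leaves out Ndufa4 (156, 295 and 205 CPM). Of 11 members measured, 6 were above 1.3-fold with croton oil, where 24.4% of all genes were. With microneedle punches 2 were above and 2 below, near the shares over all genes (16.1% and 14.4%). Cox5a, a matrix-facing subunit, stood at 128 CPM (126 to 129.9) without treatment, 278 CPM (275 to 282) with croton oil and 178 CPM (176 to 181) with microneedle punches, changes of 1.09 and 0.47. Cox5b, its zinc-binding neighbour, stood at 103, 201 and 150.4 CPM (0.93 and 0.52). Cox4i1, the most abundant member of all, was at 593, 732 and 592 CPM, so only the croton oil library differed beyond counting error.

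Cox7b, a small membrane subunit, was at 235 CPM (232 to 238) without treatment, 183 CPM (179.8 to 185) with croton oil and 156 CPM (153 to 158) with microneedle punches. Its change of -0.58 with microneedle punches was the lowest of the 76 members compared, and that with croton oil was -0.36. Cox6b2, under 20 CPM in all 3 libraries and so not compared, was at 19.0, 8.42 and 10.3 CPM (-0.65 with microneedle punches). Cox7a2l, the factor that joins complexes III and IV, was at 431, 334 and 309 CPM (-0.36 and -0.47). Cox7b and Cox7a2l were the members counted as at least 1.3-fold lower with microneedle punches, and with croton oil both lay just short of 1.3-fold lower.

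The other subunits of complex IV lay between. Cox8a was at 336, 452 and 385 CPM, Cox6b1 at 245, 349 and 285 CPM, Cox7a2 at 181, 249.6 and 204 CPM and Cox6a1 at 98.9, 147 and 116 CPM, each higher in both treated libraries. Cox6c and Cox7c had changes of at most 0.13 in either treated library. The 7 isoforms known from muscle, heart, testis or lung stayed under 20 CPM in LCs of every library. Cox4i2, an isoform known from lung and from low oxygen, had 2.59, 6.31 and 3.78 CPM, and Cox6b2, known from testis, had 19.0, 8.42 and 10.3 CPM, so that it lay just under the minimum in untreated LCs. Cox7a1 had at most 4.89 CPM and Cox6a2 at most 9 UMIs per library, Cox7b2 and Cox8b had at most 2 UMIs, and Cox8c had 0 UMIs.

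**Figure D2:**
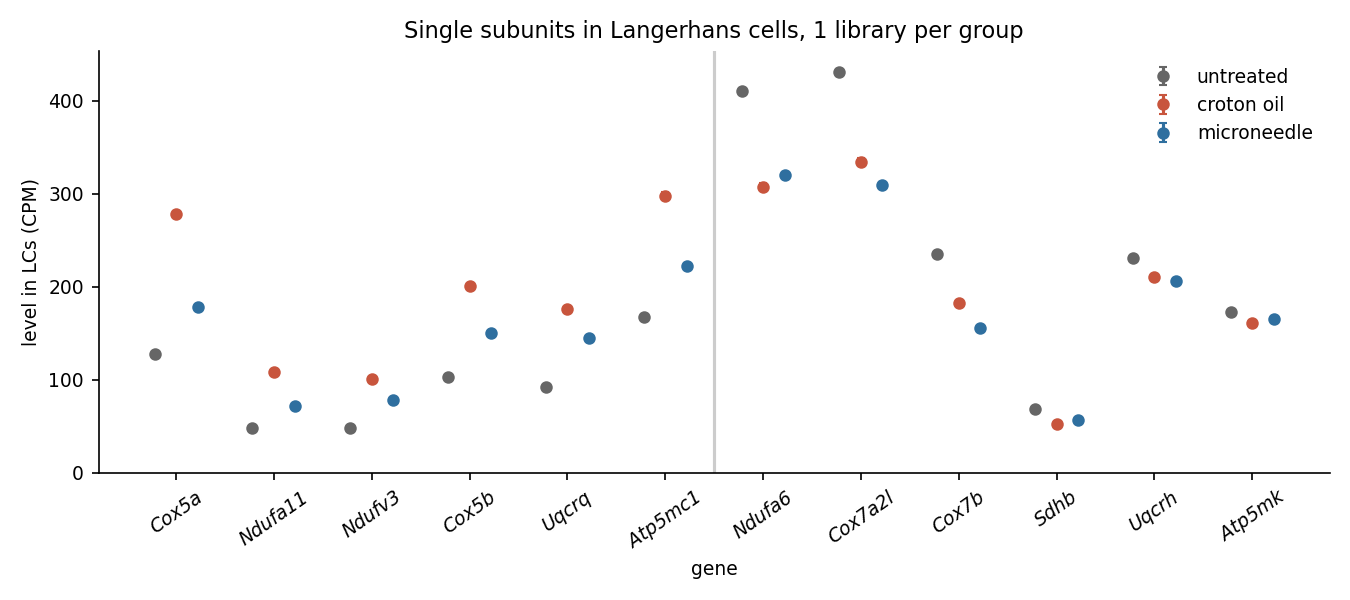
Level of 12 subunit genes in LCs (y axis, CPM) in the untreated, croton oil and microneedle libraries, 1 point per library with its Poisson interval, which is mostly smaller than the point. The 6 genes on the left are higher in both treated libraries, Cox5a from 128 to 278 and 178 CPM, and the 6 on the right lower, Cox7a2l from 431 to 334 and 309 CPM.

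Complex V, the ATP synthase, summed to 2976, 3809 and 3302 CPM, with 9 of 17 members above 1.3-fold with croton oil (24.4% of all genes) and 3 with microneedle punches, near the share of all genes (16.1%). Atp5mc1, 1 of 3 genes for the ring-forming subunit c, was at 168, 298 and 223 CPM (0.81 and 0.39). Its sister gene Atp5mc3 was at 77.9, 107 and 94.2 CPM (0.44 and 0.26), and Atp5mc2 was counted at only 2.90 to 3.67 CPM. Atp5pf, coupling factor 6 of the stalk, was at 85.7, 145 and 115 CPM (0.73 and 0.41).

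Atp5me, which helps synthases form dimers, was an exception to the order of the libraries. It was at 44.0, 65.1 and 70.1 CPM, so the change was 0.51 with croton oil and 0.61 with microneedle punches, the highest of the complex in the latter. The most abundant members in untreated LCs were Atp5mg, Atp5f1a and Atp5if1. Their changes with croton oil (0.17, 0.14 and 0.23) lay under the complex median of 0.43. Those of the next in level were larger, 0.33 for Atp5f1e (231 CPM untreated) and 0.43 for Atp5pd (211 CPM untreated). Atp5mg was at 479, 539.8 and 495 CPM, the catalytic head subunit gene Atp5f1a at 247, 272 and 235 CPM and the inhibitor gene Atp5if1 at 235, 275 and 268 CPM. Atp5mj was at 111, 119.7 and 125 CPM, and Atp5mk, the lowest of the complex with croton oil, at 173, 162 and 166 CPM (-0.09 and -0.06).

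Between the treated libraries, 68 members were higher with croton oil, as were 43.1% of all genes, with a median of 0.28 against -0.06 over all 6627 genes. Under 1000 bases of transcript length the members' median was 0.29 and that of other genes without ribosomal protein genes 0.27, of which 37.1% were at least 1.3-fold higher. Between 1000 and 3000 bases (31 members) the medians were 0.28 and 0.11, and above 3000 bases (10 members) 0.18 and -0.17. At least 1.3-fold higher were 18 members (12.5% of all genes), 0 were at least 1.3-fold lower (18.1%) and 0 reached 2-fold (2.66%). Among all genes past 1.3-fold, 40.8% were higher with croton oil, and 57.6% with libraries scaled by TMM. The 18 members became 31 under TMM scaling (16.95% of all genes), 10 in cells of 8000 to 20000 UMIs (10.9%) and 9 with a stricter LC gate (10.2%), the last 2 counts close to the share over all genes.

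The remaining 13 members stayed under 20 CPM in LCs of every library. Beside the 7 complex IV isoforms and Atp5mc2 they were Ndufb4, Ndufb4b, Ndufa4l2, Ndufb11b and the second Atp5po feature. Ndufb4, Ndufb4b and Atp5mc2 belong to families with near-identical copies, and Atp5po overlaps its second feature, so their counts are uncertain. Ndufa4l2, a low-oxygen relative of Ndufa4, had 51, 55 and 6 UMIs in all LCs of a library, and Ndufb11b 1 UMI in all. In all, 6 features had exons overlapping another listed gene on the same strand: Ndufb2, Ndufb8, Ndufb9, Ndufa13 and both named Atp5po.

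The 13 protein genes of the mitochondrial genome, all of which encode subunits of complexes I, III, IV and V, did not follow the nuclear ones. Their sum in LCs was 15306.5 CPM (15284 to 15329) without treatment, 16171 CPM (16145 to 16198) with croton oil and 13700.2 CPM (13678 to 13723) with microneedle punches. None of the 13 was at least 1.3-fold higher in either treated library, where 24.4% of all genes were with croton oil and 16.1% with microneedle punches. mt-Cytb, of complex III, was at 801, 978 and 829 CPM, and mt-Co1, the catalytic subunit of complex IV, at 3365, 2939 and 2586 CPM (-0.19 and -0.38), the 1 gene of the 13 at least 1.3-fold lower with microneedle punches (14.4% of all genes). mt-Atp8 (50.2, 34.0 and 55.9 CPM) and mt-Nd4l (91.1, 59.2 and 96.8 CPM) were at least 1.3-fold lower with croton oil (27.3% of all genes). Both overlap a neighbour on the same transcript (mt-Atp6 and mt-Nd4), so their 3′ counts are uncertain.

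The ratio of nuclear to mitochondrial subunit UMIs in LCs was 0.625 without treatment, 0.769 with croton oil and 0.762 with microneedle punches. In cells under 8000 UMIs it was 0.574, 0.707 and 0.572, so the microneedle library was not above the untreated one there. The mitochondrial sum was higher by 5.65% in the croton oil library and differed by -10.5% in the microneedle library. For complex I the ratio was 0.959, 1.27 and 1.10, and for complex IV 0.331, 0.395 and 0.396.

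**Figure D3:**
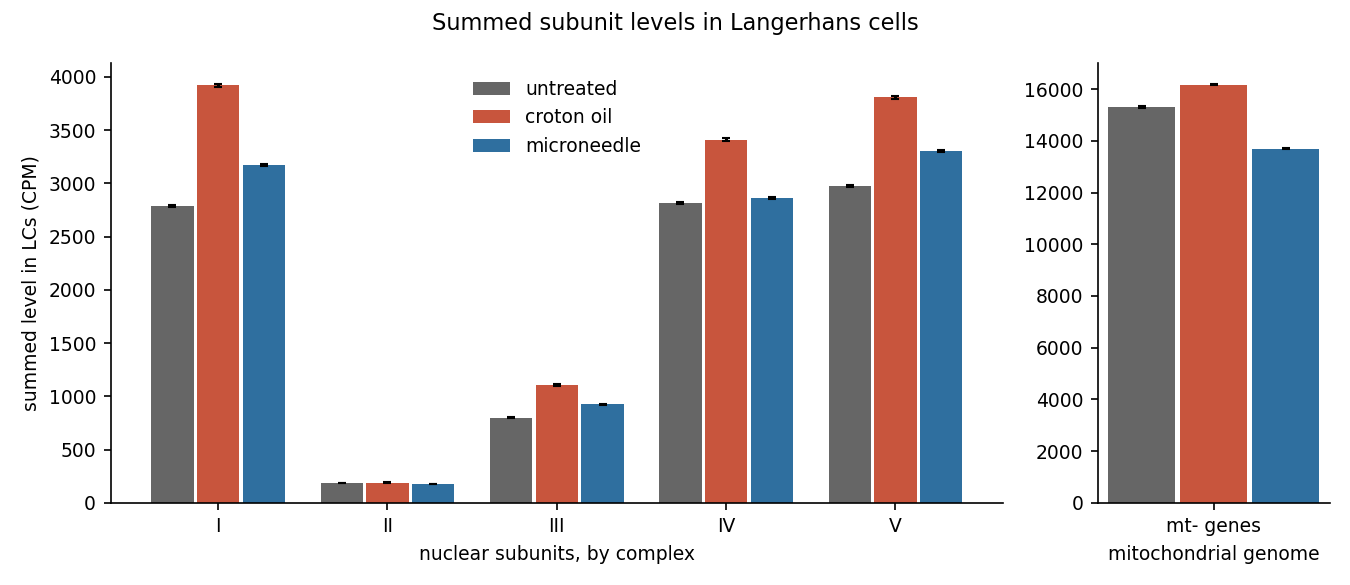
Summed level in LCs (y axis, CPM) of the nuclear subunits of complexes I to V (left) and of the 13 mitochondrially encoded genes (right, other scale), with bars for the untreated, croton oil and microneedle libraries and Poisson intervals. Complex I goes from 2792 to 3921 and 3174 CPM, complex II stays between 176 and 189 CPM, and the mitochondrial genes lie at 15306.5, 16171 and 13700.2 CPM.

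Other genes of the pathway were counted in the same way. The carriers and helpers Cyc1 (cytochrome c1, 33.0, 47.3 and 35.2 CPM), Cycs (cytochrome c, 55.3, 97.4 and 69.1 CPM) and Ndufab1 (42.4, 72.0 and 46.6 CPM) were all above 1.3-fold with croton oil and none with microneedle punches. Of the assembly factors measured, 12 of 23 were above 1.3-fold with croton oil and 5 of 20 with microneedle punches (24.4% and 16.1% of all genes). At least 1.3-fold lower were 0 in either, against 27.3% and 14.4% of all genes. Sdhaf1, which inserts the iron-sulfur clusters of complex II, was at 17.8, 58.7 and 25.02 CPM (1.48 and 0.40), while Sdhb, the subunit it serves, was lower. Ndufaf3 of complex I followed at 0.94, and with microneedle punches Pet100 (0.52) and Timmdc1 (0.50) were furthest up. Higd2a was furthest down, at 229.5, 188 and 210.5 CPM.

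Proteins of the mitochondrial ribosome, which makes the mitochondrially encoded subunits, were above 1.3-fold in 47 of 62 genes with croton oil (median 0.54), where 24.4% of all genes passed, and in 8 of 53 with microneedle punches (median 0.20), near the 16.1% of all genes. Mrpl20, furthest up with croton oil, was at 62.6, 126 and 87.5 CPM. Of the genes that copy and read mitochondrial DNA, 9 were measured with croton oil. Above 1.3-fold were 2 and below 2, near the shares over all genes (24.4% and 27.3%). With microneedle punches 1 of 7 was above and 2 below (16.1% and 14.4% of all genes). Polg2 and Polg, the mitochondrial DNA polymerase, were at 81.7, 28.9 and 46.6 CPM (-1.35 and -0.75) and at 61.7, 33.5 and 42.1 CPM (-0.80 and -0.50). Slirp, which stabilises mitochondrial messengers, was at 20.01, 38.7 and 34.0 CPM (0.81 and 0.64). Tfam, which packs mitochondrial DNA, was at 19.9, 19.4 and 19.96 CPM.

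Of the regulators of these genes, 0 of 6 measured passed 1.3-fold upward in either treated library, and Myc passed it downward in both (25.4, 15.9 and 14.6 CPM). Smaller differences upward were those of Hif1a (102, 115 and 114 CPM) and, with microneedle punches, of Gabpb1 (85.7, 82.3 and 105 CPM). Nrf1, a factor with sites in many subunit promoters, was at 74.7, 65.9 and 81.9 CPM, Gabpa at 22.4, 21.2 and 23.0 CPM and Esrra at 12.8, 13.1 and 13.1 CPM. The co-activator gene Ppargc1a had 7 to 9 UMIs per library, and Ppargc1b was at 9.36, 2.55 and 7.38 CPM. Of the citrate cycle genes, 1 of 15 passed 1.3-fold upward with croton oil, Mdh2 (43.7, 75.2 and 55.1 CPM), and 1 downward, Suclg2 (28.1, 20.3 and 24.4 CPM). With microneedle punches it was 1 of 14 upward, Dlat (39.2, 51.2 and 56.9 CPM), and 0 downward. Over all genes, 24.4% passed upward and 27.3% downward with croton oil, and 16.1% and 14.4% with microneedle punches.

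Of the carriers and antioxidant genes 6 of 10 passed 1.3-fold upward with croton oil, where 24.4% of all genes did, and 2 of 10 with microneedle punches, near the 16.1% of all genes. Ucp2, an inner membrane carrier, was at 421, 742 and 478 CPM, and Vdac1, the outer membrane channel, was furthest down at 133, 99.0 and 105 CPM. Among genes known to switch in low oxygen or inflammation, 3 were measured. Of these, 2 were above 1.3-fold with croton oil and 0 with microneedle punches (24.4% and 16.1% of all genes). The 2 were Higd1a, at 46.9, 81.5 and 60.6 CPM, and Bnip3, at 22.8, 35.5 and 26.7 CPM. Lonp1 was slightly lower in both treated libraries, at 24.25, 22.8 and 21.1 CPM. Acod1, which makes itaconate, an inhibitor of complex II, had 0, 119 and 660 UMIs in LCs, up to 6.33 CPM. In the neutrophils of the treated libraries it stood at 611 and 2281 CPM, and the part of RNA from these cells in the LC counts was not tested. AA467197, which replaces Ndufa4 in inflamed cells, had at most 2.13 CPM in LCs, against 856 and 86.8 CPM in neutrophils with croton oil and microneedle punches.

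Transcript length moved with the croton oil result. The members' transcripts are short, with a median of 1140 bases against 3515 over all genes measured. With croton oil, other genes without ribosomal protein genes had a median change of 0.35 under 1000 bases, 0.17 between 1000 and 3000 bases and -0.16 above 3000 bases. The members' medians in the same bands were 0.50 (35 genes), 0.42 (31 genes) and 0.32 (10 genes), above the other genes in each. With microneedle punches the other genes were at 0.07, 0.05 and 0.01 and the members at 0.22, 0.11 and 0.17. Of the other genes under 1000 bases, 47.6% were at least 1.3-fold higher with croton oil. The 92 genes of cytosolic ribosomal proteins, also short, had medians of -0.35 and -0.41. The part of transcript length in the members' changes was not tested.

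**Figure D4:**
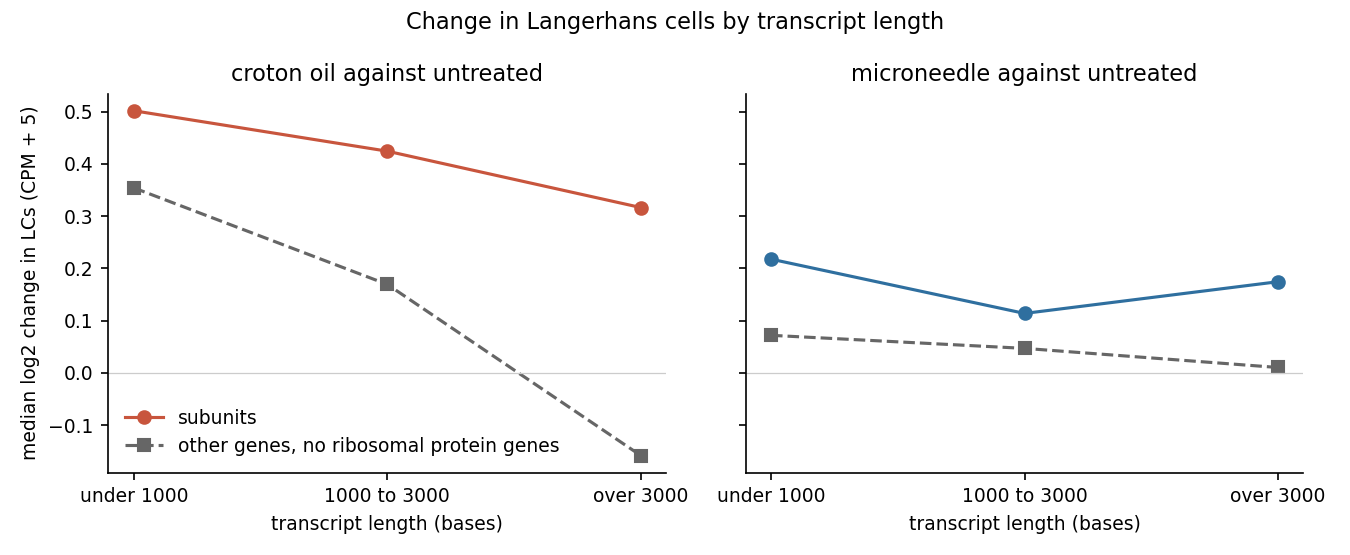
Median log2 change in LCs (y axis, CPM + 5) in 3 bands of transcript length (x axis, bases) for the subunits (circles) and all other genes but ribosomal protein genes (squares), with croton oil (left) and microneedle punches (right). With croton oil both lines go down with length, from 0.50 to 0.32 for the subunits and from 0.35 to -0.16 for the other genes.

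Cell depth and state were compared as well. Among LCs of 8000 to 20000 UMIs, the summed subunit level was 9521, 12572 and 10962 CPM, in those under 8000 UMIs 10641, 13407 and 11451 CPM, and in those over 20000 UMIs 9400.5, 11836 and 9866 CPM. The croton oil library was highest and the untreated lowest in each band. Without migratory cells (at least 2 UMIs of Ccr7 and Fscn1) and cycling cells, the level was 9487, 12566 and 10650.1 CPM. Cycling LCs had 9972, 11614 and 9834 CPM, so the microneedle library was not above the untreated one there. The 229 migratory LCs of the croton oil library had 11842 CPM, and the untreated and microneedle libraries held only 17 and 38 such cells.

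Keratinocytes, the main cells of the epidermis, had more subunit RNA per UMI than LCs in each library: 14461, 22752 and 17136 CPM, or 1.51, 1.83 and 1.64 times the level in LCs. These rest on 159, 214 and 76 cells with medians of 31134, 51525 and 33420.0 UMIs. The keratinocytes were not the same mix in each library. Krt10, of differentiating cells, was at 17419, 576 and 3794 CPM, and Krt14, of basal cells, at 4933, 17666 and 16627 CPM, so that a change within cells and a change of cell mix cannot be told apart. Cd207 stood at 13.3%, 7.49% and 20.3% of its level in LCs, which is a measure of free or shared LC RNA in these droplets.

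With that limit, 56 of 77 members were at least 1.3-fold higher in keratinocytes with croton oil (32.8% of all genes) and 1 at least 1.3-fold lower (31.3%), with a median of 0.71 against 0.01 over all genes. With microneedle punches 35 were higher (33.5%) and 3 lower (19.7%), with a median of 0.33 against 0.15. Length moved with the croton oil result here too: other genes without ribosomal protein genes had medians of 0.38 under 1000 bases, 0.19 between 1000 and 3000 bases and -0.12 above. All 4 Sdh genes passed 1.3-fold upward in both, and their sum was 144, 293 and 219 CPM. Atp5mc3 was at 101, 375 and 245 CPM and Atp5f1b, of the catalytic head, at 304, 801 and 517 CPM.

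Ndufa6 was at 279.9, 203 and 207 CPM and Cox7a2l at 351, 269 and 239 CPM in keratinocytes, lower in both treated libraries as in LCs, with the same untreated library as reference. Ndufa4 was at 1440, 1562 and 988 CPM in keratinocytes, and Ndufa4l2, nearly absent from LCs, had 46.8, 174 and 92.2 CPM. The mitochondrial genes were at 7150.3, 14938 and 11214 CPM in keratinocytes, so the ratio of nuclear to mitochondrial UMIs was 2.02, 1.52 and 1.53.

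Neutrophils, present in both treated libraries only (180 and 379 cells, medians of 3327 and 3356 UMIs), had the lowest subunit levels, 5202 CPM (5035 to 5373) with croton oil and 3511 CPM (3424 to 3600) with microneedle punches. That was 0.418 and 0.336 of the level in LCs. Cd207 stood at 10.9% and 5.81% of its LC level in neutrophils. Its share in the macrophages described next was 1.98%, but their gate itself held Cd207 under 2 UMIs per cell, so the shares cannot be compared. Between the libraries, 43 of 63 members were at least 1.3-fold higher with croton oil (32.1% of all genes) and 3 at least 1.3-fold lower (34.0%). The neutrophils held 707052 and 1750586 UMIs in all, so single members rest on few UMIs. Uqcr10 was at 94.8 CPM (73.4 to 120) and 38.8 CPM (30.2 to 49.2), from 67 and 68 UMIs. Ndufa2, the furthest down, was at 62.2 CPM (45.2 to 83.5) and 105 CPM (90.5 to 121). The part of LC RNA in the members' differences was not tested. The mitochondrial genes went the other way, at 2256 and 3834 CPM. In single neutrophils the median share of mitochondrial UMIs was 0.141% with croton oil and 0.0833% with microneedle punches, the reverse of the sums, with 5% of cells above 0.469% and 0.618%.

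The 205 macrophages of the microneedle library (median 7288 UMIs) had 11895 CPM (11722 to 12069) of nuclear subunits, 1.14 times the level in LCs. Their mitochondrial genes were at 6472 CPM, 0.472 times the LC level. Uqcrq (277 against 145 CPM) and Uqcrb (199 against 105 CPM) were higher than in LCs of that library, and Ndufa6 (131 against 320.4 CPM) and Cox7a2l (95.4 against 309 CPM) lower. The croton oil library held 5 such cells and the untreated one 0, too few for a value.

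**Figure D5:**
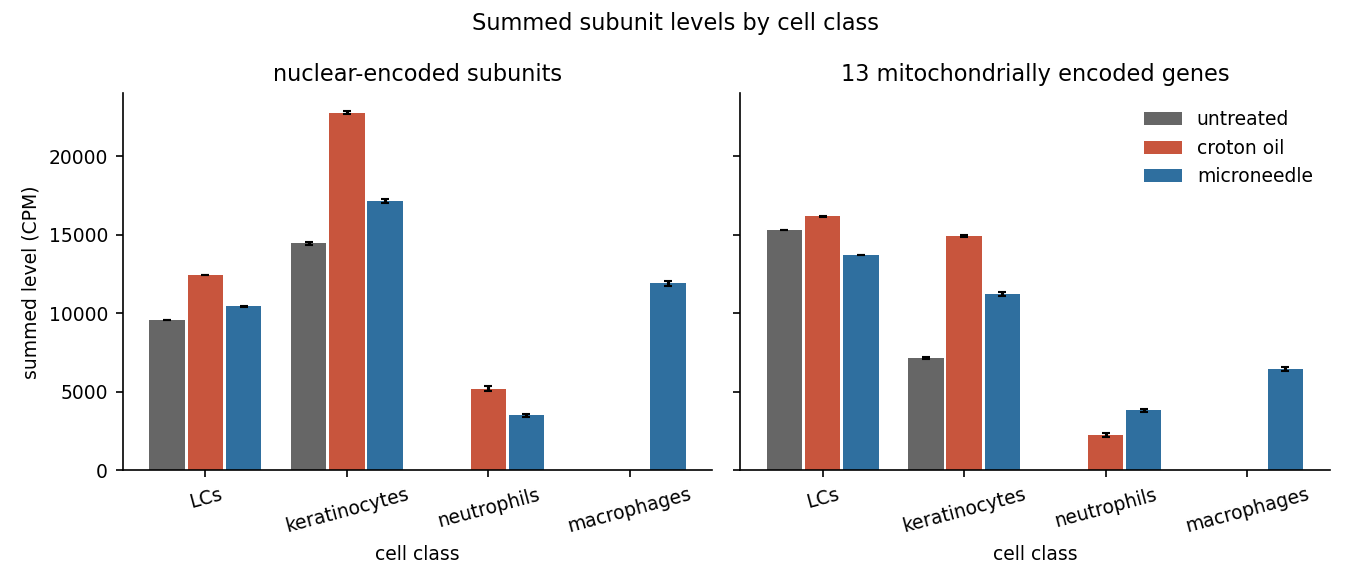
Summed level (y axis, CPM) of the nuclear-encoded subunits (left) and of the 13 mitochondrially encoded genes (right) in LCs, keratinocytes, neutrophils and macrophages (x axis), by library, with Poisson intervals; classes under 50 cells in a library have no bar. Keratinocytes have the highest nuclear sums, 14461 to 22752 CPM, LCs the highest mitochondrial sums, and neutrophils the lowest of both.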

How the data were processed

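The deposited files hold whole-number UMI counts per gene and barcode, which the authors produced in Cell Ranger (8.0.0 per the file headers) on build GRCm39, per the submitters' processing notes. The libraries are Chromium 3' libraries, per the labels, so each molecule counts once whatever its length, and levels were not divided by length. The files list barcodes called as cells, and libraries share 13 to 32 barcode sequences.

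Cells with at least 500 genes and at most 10% mt- UMIs were kept. Classes were set by gates on summed UMIs: LCs as in the report, keratinocytes by at least 2% of UMIs from 15 keratin and junction genes, neutrophils by at least 2% from S100a8 and S100a9 and 3 further markers detected, macrophages by at least 0.5% from 12 genes, 3 of them detected, and under 2 UMIs each of Epcam and Cd207. Droplets in the gates of more than 1 class were taken as doublets and left out (25, 127 and 29 in the LC gate). UMIs were summed per class and library and given as CPM. Genes entered with at least 20 CPM in either library, and changes, also those behind the 1.3-fold and 2-fold counts, are log2 ratios with 5 CPM added. No test was run, with 1 library per group. The counting step was tested on simulated data.

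The members and lists were chosen with earlier results of these data known. Genes named with values were, in each complex, the 3 of highest untreated level, the 2 of highest and the 2 of lowest change in each treated library, isoform pairs and the Sdh genes, and from other lists the furthest each way and 10 set regulators, carriers and enzymes; any other member named was chosen after its values were seen. Gene models and lengths are from GENCODE M39 and promoters from RefSeq (GRCm38.p6), matched by symbol (56) or older symbol (13). Python 3.11.15, numpy 2.4.6, scanpy 1.11.5 (Scrublet) and edgeR 4.0.16 (TMM) were used. Alternatives covered scaling, weighting of cells, depth, gate, states, filters, doublets and pseudocount. A further one, without the Epcam requirement, was chosen after seeing the data.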

Additional observations from a re-analysis of the deposited data

Results flagged for a closer look

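Keratinocytes and LCs differed in sign between the microneedle and the untreated library in 5 summed levels, in 1 of which (the mt- genes of complex I) the counting intervals of the LC levels overlapped, so that LCs had no direction there. Each group is 1 library, so none of these differences was tested, and the mix of keratinocytes differed between the libraries (Krt10 at 17419 against 3794 CPM). Complex II had a log2 change of 0.60 in keratinocytes and -0.08 in LCs, a difference of 0.68. The mt- genes of complex I had 1.02 and -0.01, a difference of 1.03. Those of complex IV had 0.38 and -0.23, a difference of 0.61, and those of complex V 0.68 and -0.18, a difference of 0.86. All 13 mt- genes together had 0.65 and -0.16, a difference of 0.81. This sum contains the mt- sets just given, so the 5 levels are not separate.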

How the results depend on the processing

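The median change of the subunits kept its sign under every alternative run. With croton oil against untreated it was 0.49 under TMM scaling and without migratory and cycling cells, 0.40 with a total without mt- and ribosomal protein genes, and 0.41 with the stricter LC gate. The members at least 1.3-fold lower there numbered 0, 5 and 5 under TMM scaling, the reduced total and the stricter gate, and 2 with no filter on low values. With microneedle punches the median was 0.15 and 0.14 under TMM scaling and the reduced total, 0.25 in cells of 8000 to 20000 UMIs and 0.23 without migratory and cycling cells. The members at least 1.3-fold higher numbered 12 under both scalings (14.2% and 13.9% of all genes), close to the share over all genes, and those lower 3 under TMM scaling, with the stricter gate and with no filter, 4 with the reduced total and 1 in cells of 8000 to 20000 UMIs. With croton oil against microneedle punches the median was 0.36 under TMM scaling, 0.22 in cells of 8000 to 20000 UMIs, 0.23 with the stricter gate and 0.24 with no filter. The count above 1.3-fold was 31, 10, 9 and 18 (16.95%, 10.9%, 10.2% and 3.09% of all genes). The cause of these shifts was not tested. The alternative without the Epcam requirement, chosen after seeing the data, gave 0.44, 0.19 and 0.28. With a pseudocount of 1 CPM, 48 members were higher and 1 lower with croton oil (26.3% and 28.9% of all genes), 22 and 2 with microneedle punches (17.65% and 16.02%), and 19 and 0 between them (14.0% and 20.4%). With 1 library per group, leaving out a library was not possible. Restricting cell depth to 8000 to 20000 UMIs moved the microneedle count above 1.3-fold from 20 to 26 (15.75% of all genes at that depth), and counting intervals say nothing of the spread between animals.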
